A study of Mus musculus with 24 samples.

Results

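The genes of class I antigen presentation and of the immunoproteasome were followed across 8 lines of B16-F10 cells, a mouse melanoma line from the C57BL/6 strain, here carrying a luciferase reporter. The set was a list of 10 gene symbols chosen by function, namely H2-K1, H2-D1, B2m, Tap1, Tap2, Tapbp, Psmb8, Psmb9, Psmb10 and Psme1, and 9 of them had a row in the table of 12010 genes. The level of Psmb8 was not analysed here. The lines were the parental cells, the MITF KO, the TFE3 KO, the TFEB KO, the TFEB/TFE3 DKO, the MITF/TFE3 DKO, the MITF/TFEB DKO and the TKO, in which all of MITF, TFEB and TFE3 were inactivated. The MITF KO carries a frameshift in the gene and was made in earlier work, and Tfeb and Tfe3 were inactivated with Cas9 and guide RNAs in the parental and the MITF KO cells. The paper shows western blots of the lines. It reports a minor faster band with the MITF antibody in the MITF KO and proposes that a little truncated MITF may remain. KO cells were isolated as clones, so an effect of the genotype and a property of the clone cannot be told apart. Each line has 3 libraries from cells in standard medium, and nothing in the sources says that these came from separate cultures, so the p-values measure the spread between these libraries, which may be technical.

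Class I molecules show peptides from inside the cell to CD8+ T cells. Proteasomes cut proteins into peptides, the TAP transporter carries these into the endoplasmic reticulum, and tapasin helps to load them onto a heavy chain bound to β2-microglobulin. Interferons raise most of these genes, among them the immunoproteasome subunits that replace the constitutive ones, and NLRC5 is the transactivator that acts on class I promoters. B16 melanoma cells are known for low class I levels at the surface.

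Class I genes were lowest in the MITF KO and highest in the double KO of MITF and TFEB for 7 of the 9 genes. In the MITF KO, 8 of 9 genes were called at least 2-fold below the parental cells, when 2.99% of all genes were. Calls are on the log2(CPM + 1) scale and use an unadjusted p under 0.05 by limma. Tap1 was all but absent in the MITF KO, with 6 reads in 3 libraries. Inactivation of TFEB in the MITF KO was accompanied by a rise of all 9 genes by the adjusted test, when 25.1% of all genes rose. H2-D1, Tap2, Tapbp, Psmb10 and Psme1 were then higher than in the parental cells (28.8% of all genes). In the TKO, B2m, Tap1 and Psmb9 were again low, while H2-D1 stayed within the range of the other lines. The 2 exceptions to this order were B2m, which was lowest in the TKO and highest in the parental cells, and H2-K1, which had reads in only some lines.

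Reads on genes numbered 18300902 in the shallowest library and 26667877 in the deepest. The kit primes on the poly(A) tail and reads the 3′ end, and a longer gene therefore gives no more reads than a shorter one. Values are given as CPM (counts divided by the library size, which the TMM method had scaled, in units of 1e6 reads), and fold changes are on the scale of log2(CPM + 1), where changes of low genes come out too small. The mRNA of the targeted genes was checked first, here in the single KOs. Tfeb mRNA was between 2.06 and 3.67 CPM in the TFEB KO against 7.87 to 10.3 CPM in the parental cells, and Tfe3 mRNA was between 8.44 and 12.2 CPM in the TFE3 KO against 35.4 to 38.4 CPM. Mitf mRNA did not mark its KO, at 1358 to 1470.5 CPM for the MITF KO against 763 to 797 CPM in the parental cells. All 7 listed genes of the melanocyte lineage were in the table, and their summed level ran from 15826 CPM in a TKO library to 40321 CPM in an MITF KO library. Of 10 leukocyte markers only Lyz2 and Cd74 had a row, and their summed level was at most 0.955 CPM in the parental cells and in every single KO, and between 2.84 and 4.62 CPM in the MITF/TFE3 DKO, the MITF/TFEB DKO and the TKO. Krt14, the epithelial marker with a row, was 0 in the parental cells and 6.51 to 8.98 CPM for the MITF/TFEB DKO, and 16.1 to 19.3 CPM for the TKO. Pecam1 of endothelium ran from 0 in the TKO to 31.6 CPM in the TFEB/TFE3 DKO, and Col1a1 of fibroblasts reached 7.84 CPM for the MITF/TFEB DKO. Whether these markers have a part in the class I values was not tested. In such bulk libraries, fewer cells that express a gene and less RNA per cell cannot be told apart.

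In the GENCODE annotation of mm39, the build of the authors' mapping, 6 of the 9 genes lie on chromosome 17, within the major histocompatibility complex. H2-K1 is at chr17:34214987-34219321 on the minus strand and H2-D1 at chr17:35481691-35486475 on the plus strand. Tap1 (chr17:34405996-34416199, plus strand) and Psmb9 (chr17:34400960-34406738, minus strand) are transcribed away from each other from overlapping starts, and Tap2 (chr17:34422501-34435829) and Tapbp (chr17:34134873-34148267) are on the plus strand. B2m lies on chromosome 2 (chr2:121977957-121983594, plus strand), Psmb10 on chromosome 8 (chr8:106662362-106665077, minus strand) and Psme1 on chromosome 14 (chr14:55815190-55822034, plus strand). In the last 300 bases of the transcripts, where the reads fall, 17.1% of the 50-base stretches of H2-D1 also occur in other genes, and 0.797% of those of H2-K1 occur in H2-D1, so that reads of H2-D1 are less certain than those of the other 7 genes, which share none. B2m, Tapbp, Psmb10 and Psme1 overlap a gene on the opposite strand, namely Patl2, Gm64688, Gm16156 and Emc9.

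The promoters of the genes that moved most are shown so that the motifs of the factors known to act on class I genes can be seen. The windows run from 250 bases before to 50 after the RefSeq start and were placed on mm39 by exact match. Those of H2-D1, Tap1 and Tapbp lie wholly inside the GENCODE gene spans given above, which begin further upstream. Which start these cells use was not tested, and reads of the 3′ end do not show it. Capitals mark the motifs that were searched on both strands. CCAAT (read as ATTGG on the other strand) is the Y box bound by NF-Y, TGACGC is a part of the X2 box bound by CREB and ATF1, and the interferon-stimulated response element, searched as a pair of GAAA runs with any 2 bases between them, is bound by IRF and STAT complexes. The Psmb9 window shares 275 bases with that of Tap1 on the opposite strand and is not repeated. H2-D1 at chr17:35481820-35482119 (plus strand), Tap1 at chr17:34406280-34406579 (plus strand), Tapbp at chr17:34138202-34138501 (plus strand) and B2m at chr2:121977918-121978217 (plus strand) read as follows.
H2-D1: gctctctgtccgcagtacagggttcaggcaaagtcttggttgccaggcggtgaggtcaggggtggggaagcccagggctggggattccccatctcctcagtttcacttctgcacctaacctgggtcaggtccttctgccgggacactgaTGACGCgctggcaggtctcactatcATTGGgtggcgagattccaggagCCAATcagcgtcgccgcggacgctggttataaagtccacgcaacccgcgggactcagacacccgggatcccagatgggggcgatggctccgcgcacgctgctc
Tap1: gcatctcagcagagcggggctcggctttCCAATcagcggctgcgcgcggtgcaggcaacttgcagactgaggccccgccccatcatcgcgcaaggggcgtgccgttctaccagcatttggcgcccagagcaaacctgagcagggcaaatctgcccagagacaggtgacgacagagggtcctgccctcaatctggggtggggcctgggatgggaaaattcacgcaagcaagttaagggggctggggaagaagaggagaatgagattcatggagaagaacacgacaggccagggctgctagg
Tapbp: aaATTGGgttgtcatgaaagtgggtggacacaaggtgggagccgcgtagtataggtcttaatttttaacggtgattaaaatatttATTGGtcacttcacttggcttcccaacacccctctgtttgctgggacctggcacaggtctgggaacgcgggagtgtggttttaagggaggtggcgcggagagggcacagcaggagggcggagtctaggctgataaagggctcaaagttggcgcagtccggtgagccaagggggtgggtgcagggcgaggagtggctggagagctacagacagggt
B2m: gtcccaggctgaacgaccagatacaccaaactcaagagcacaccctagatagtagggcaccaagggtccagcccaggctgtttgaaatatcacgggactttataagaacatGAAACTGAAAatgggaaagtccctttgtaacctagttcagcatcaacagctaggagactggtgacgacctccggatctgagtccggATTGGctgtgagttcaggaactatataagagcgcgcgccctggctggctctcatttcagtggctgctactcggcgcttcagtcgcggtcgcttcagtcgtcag

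Of the 10 genes, 9 had a promoter in the table of 32851 RefSeq promoters (build GRCm38.p6), and Tap2 is named only. The interferon-stimulated response element was in the windows of B2m and Psme1, and 3.44% of all promoters hold it. TGACGC was in H2-K1 and H2-D1, against 7.40% of all promoters, and CCAAT was in 6 of 9 windows, against 37.4%. The Y box of Psmb9 is the same stretch of DNA as that of Tap1. Of the motifs bound by the MITF family, CACGTG was in the window of Psmb10 alone (7.15% of all promoters) and TCATGTG in none (3.77%). The STAT motif TTCNNNGAA was in the window of Psmb8 (8.30%). The exact letters GGGANTTCC, a narrow form of the NF-κB motif, were in none (1.68%). These matches describe letters in the windows and not bound sites. Looser forms of the motifs were not searched, so a window without a match may still hold a site.

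**Figure D1:**
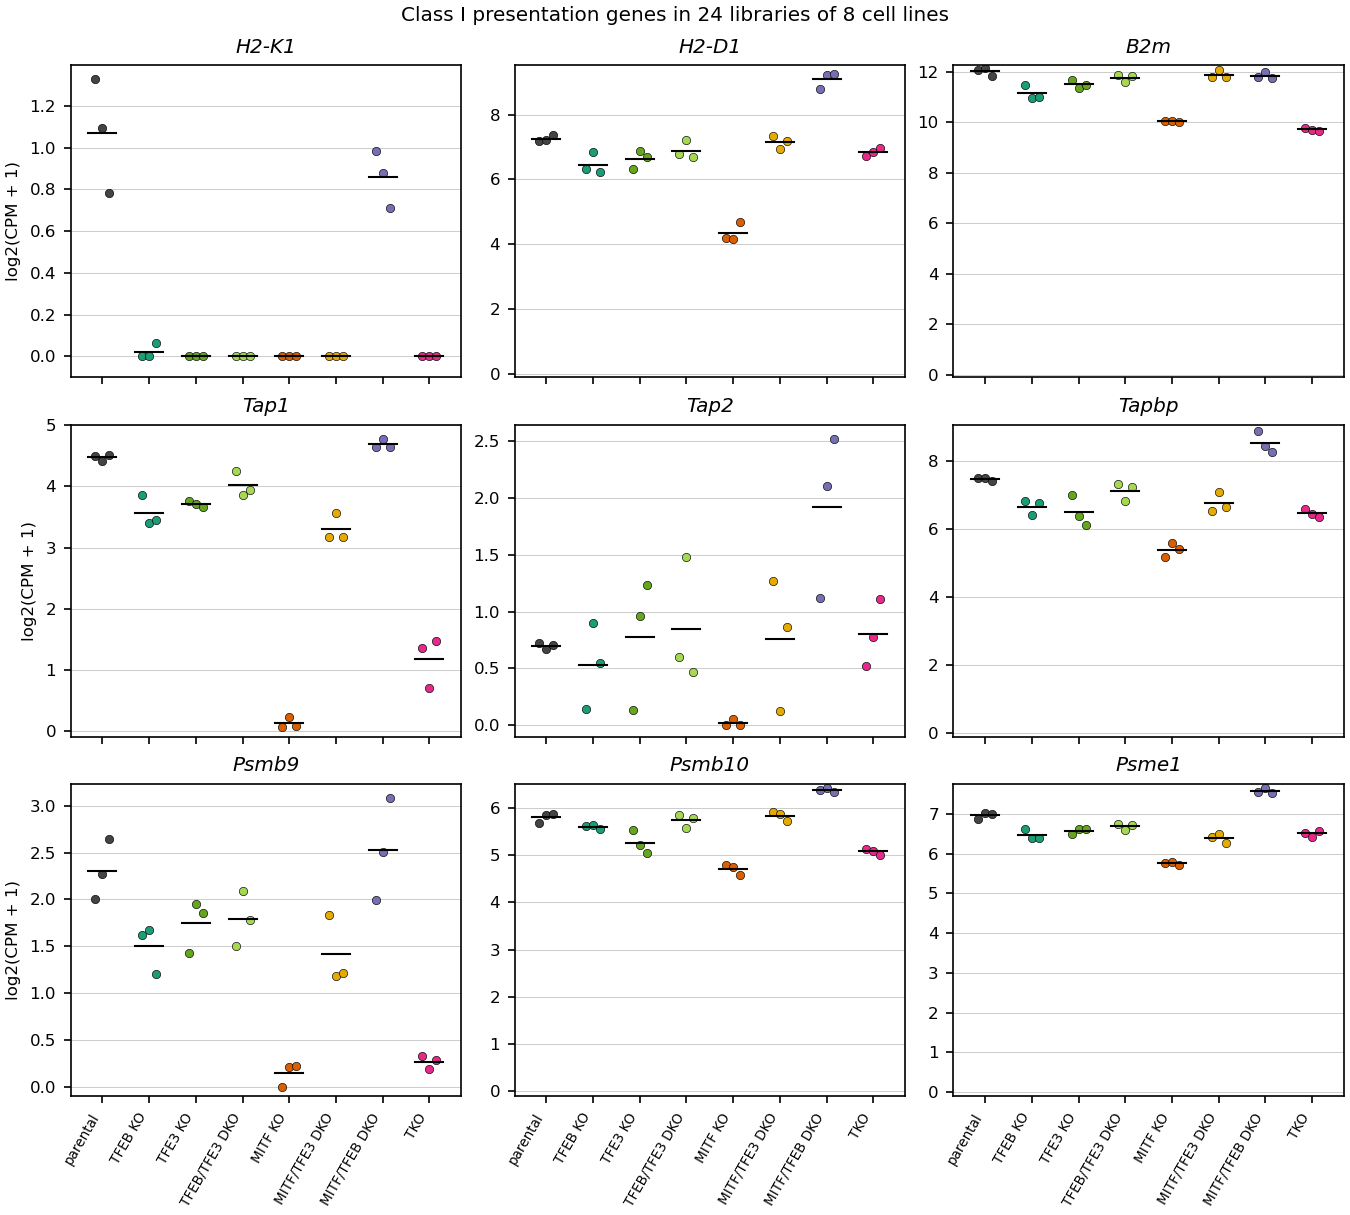
Levels of the 9 genes in 24 libraries, one panel for each gene, with the 8 cell lines on the x axis and log2(CPM + 1) on the y axis, which starts near 0 in each panel and has its own upper limit. Points are libraries (3 for each line) and bars are their means; the MITF KO was lowest for 8 genes, level with other lines at 0 for H2-K1, and the MITF/TFEB DKO was highest for 7.

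H2-D1 encodes one of the classical class I heavy chains of this strain. Its level was 145, 147 and 164 CPM in the parental cells and 17.3, 16.99 and 24.5 CPM for the MITF KO. It was 443, 599 and 614 CPM for the MITF/TFEB DKO, 162, 120.4 and 145 CPM for the MITF/TFE3 DKO and 104, 113 and 126 CPM for the TKO. The MITF KO libraries were below, and the MITF/TFEB DKO libraries above, all others. Levels in the TFE3 KO (79.6, 116 and 103 CPM), the TFEB KO (78.7, 113 and 73.8 CPM) and the TFEB/TFE3 DKO (109, 147 and 101 CPM) overlapped each other. Between the extremes, each line in the order of the means (parental, MITF/TFE3 DKO, TFEB/TFE3 DKO, TKO, TFE3 KO and TFEB KO) overlapped the next. Against the parental cells, H2-D1 fell by 2.91 on the log2 scale in the MITF KO (SE 0.178, limma adjusted p = 5.5e-12) and rose by 1.84 in the MITF/TFEB DKO (adjusted p = 8.12e-09 by limma). In the TKO its change of -0.41 missed the adjusted threshold (limma adjusted p = 0.0513).

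H2-K1, the other classical heavy chain, was hardly detected. It had 35, 25 and 16 reads in the parental libraries and 25, 20 and 16 in the MITF/TFEB DKO, and these 2 lines overlapped. The other 6 lines had no read in any library, apart from 1 read in TFEB KO replicate 3. This order differs from that of H2-D1, since the TFEB/TFE3 DKO held 2126 to 3036 reads of H2-D1 and none of H2-K1. With a count of 3 reads in each library as the upper limit of a count of 0, H2-K1 was at least 7.92-fold lower in the MITF KO than in the parental cells, at least 8.35-fold lower in the MITF/TFE3 DKO and at least 8.84-fold lower in the TKO. These limits cover counting error only. Without parental replicate 1 the fitted log2 change in the MITF KO moved from -1.07 to -0.94, under the 2-fold threshold.

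B2m, the light chain that every class I molecule needs, had the highest level of the set. It was 4335, 4507 and 3702 CPM in the parental cells, 1075, 1072 and 1019.6 CPM for the MITF KO and 882, 829.7 and 812 CPM for the TKO. Both of these lines lay below all others, and the TKO libraries lay below those of the MITF KO. Levels of the MITF/TFEB DKO (3537, 4067 and 3467 CPM) and of the MITF/TFE3 DKO (3586, 4287 and 3576 CPM) overlapped those of the parental cells, as did those of the TFEB/TFE3 DKO (3772, 3099 and 3627 CPM). The TFEB KO had 2868, 1999 and 2056 CPM and the TFE3 KO 3277, 2643 and 2820.1 CPM, both below every parental library. Relative to parental cells, B2m changed by -1.98 on the log2 scale in the MITF KO (SE 0.126) and by -2.31 in the TKO, with limma adjusted p-values of 1.15e-11 and 3.07e-13. B2m, like H2-K1, had its highest mean in the parental cells and not in the MITF/TFEB DKO, where its change of -0.18 had an adjusted p of 0.237 by limma.

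Tap1 encodes one subunit of the peptide transporter. It was 21.7, 20.5 and 21.9 CPM in the parental cells and 0.0471, 0.161 and 0.0545 CPM for the MITF KO, which were 1, 4 and 1 reads. The TKO had 1.57, 0.618 and 1.76 CPM, the MITF/TFE3 DKO 7.97, 10.8 and 8.04 CPM and the MITF/TFEB DKO 24.2, 26.4 and 24.05 CPM. The MITF KO was below the TKO, the TKO was below the MITF/TFE3 DKO, and only the MITF/TFEB DKO lay above the parental cells. The TFE3 KO (12.6, 12.2 and 11.7 CPM) and the TFEB KO (13.6, 9.60 and 9.90 CPM) overlapped, and the TFEB/TFE3 DKO (18.2, 13.6 and 14.4 CPM) had a mean between theirs and that of the parental cells. Pooled over the libraries, the parental cells had 230-fold the level of the MITF KO, with an exact 95% interval of 105 to 627 from the counts. On the log2 scale Tap1 fell by 4.36 in the MITF KO (SE 0.171, limma adjusted p = 1.04e-15), the largest fall in the set, and by 3.31 in the TKO (adjusted p = 1.2e-13 by limma).

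Tap2, which encodes the other subunit of the transporter, was near the limit of detection. It was 0.647, 0.591 and 0.629 CPM in the parental cells and 1.18, 3.32 and 4.74 CPM for the MITF/TFEB DKO, where all 3 libraries were higher. The MITF KO had 1 read in 3 libraries, which made Tap2 at least 4.39-fold lower than in the parental cells, although limma gave an adjusted p of 0.116. On the recovered reads the edgeR test gave an adjusted p of 0.011. In the TFE3 KO, TFEB KO, TFEB/TFE3 DKO, MITF/TFE3 DKO and TKO single libraries ran from 0.0942 to 1.79 CPM and overlapped the parental cells. Without MITF/TFEB DKO replicate 3, the rise of 1.22 in that line became 0.92, under 2-fold.

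Tapbp encodes tapasin, which bridges TAP and the heavy chain. It was 183, 182 and 171 CPM in the parental cells, 35.4, 47.8 and 42.2 CPM for the MITF KO and 476, 347 and 311 CPM for the MITF/TFEB DKO. The MITF KO lay below all other libraries and the MITF/TFEB DKO above them. The TKO had 96.5, 86.0 and 81.8 CPM and overlapped the TFE3 KO (127, 83.4 and 68.7 CPM), and the TFEB KO (113, 84.1 and 108 CPM), the MITF/TFE3 DKO (92.1, 137 and 101 CPM) and the TFEB/TFE3 DKO (159.5, 114 and 152 CPM) overlapped in turn. Against the parental cells Tapbp fell by 2.08 in the MITF KO and by 1.01 in the TKO, and it rose by 1.06 in the MITF/TFEB DKO (log2 scale, limma adjusted p = 9.72e-09, 0.000106 and 6.67e-05). These last 2 changes were close to 2-fold. The TKO change was between -0.96 and -0.999 without parental replicate 1 or 2 or TKO replicate 2 or 3, and the rise in the MITF/TFEB DKO was 0.88 without its replicate 1.

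Psmb9 encodes the immunoproteasome subunit that replaces Psmb6. It was 3.02, 3.82 and 5.26 CPM in the parental cells, 0, 0.161 and 0.163 CPM for the MITF KO, 0.255, 0.143 and 0.215 CPM for the TKO and 2.98, 4.66 and 7.45 CPM for the MITF/TFEB DKO. The MITF KO and the TKO overlapped each other and no other line, and the MITF/TFEB DKO overlapped the parental cells. The parental cells had 37.0-fold the level of the MITF KO (exact 95% interval 17.7 to 93.0 from 7 reads) and 19.2-fold that of the TKO (11.5 to 34.8, from 15 reads). The log2 changes were -2.16 and -2.04, with adjusted p-values of 1.76e-07 and 1.61e-07 by limma.

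Psmb10, which replaces Psmb7, and Psme1, a subunit of the PA28 cap that opens the proteasome, changed less. Psmb10 was 50.1, 56.9 and 57.6 CPM in the parental cells, 26.8, 25.7 and 22.8 CPM for the MITF KO, 34.1, 33.1 and 31.2 CPM for the TKO and 82.1, 84.2 and 79.7 CPM for the MITF/TFEB DKO. Psme1 was 116, 129.8 and 126.5 CPM in the parental cells, 52.9, 54.6 and 51.8 CPM for the MITF KO, 91.3, 84.97 and 94.3 CPM for the TKO and 187.5, 201 and 184 CPM for the MITF/TFEB DKO. For both genes these 4 lines did not overlap. Psmb10 fell by 1.10 and Psme1 by 1.21 in the MITF KO on the log2 scale (limma adjusted p = 1.73e-08 and 3.17e-11). In the MITF/TFE3 DKO the genes parted, since Psmb10 (59.3, 57.1 and 51.8 CPM) overlapped the parental cells and Psme1 (84.9, 89.0 and 76.5 CPM) fell by 0.57 (adjusted p = 7.6e-06 by limma).

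Reads of Psmb9, Psmb10 and Psme1 were set against those of Psmb6, Psmb7 and Psme3. Such ratios compare mRNA and do not measure exchange of subunits in the proteasome. The table held 0.905 ± 0.246 reads of Psmb9 for every 100 reads of Psmb6 in the parental cells (SD, n = 3), 0.0296 ± 0.0258 in the MITF KO, 0.0862 ± 0.0225 in the TKO. The MITF/TFEB DKO had 1.94 ± 1.01. The parental and MITF/TFEB DKO libraries overlapped in this ratio and lay above those of the MITF KO and the TKO. For Psmb10 per 100 reads of Psmb7 the MITF KO (16.1 ± 3.56) overlapped the parental cells (17.5 ± 1.89), since Psmb7 was itself lower in the MITF KO, at 160 ± 27.0 CPM against 316 ± 47.1 CPM. The MITF/TFEB DKO had 39.04 ± 6.17 and lay above every other line. Psmb6 and Psmb7 had negative changes in the MITF/TFEB DKO (given below), so its ratios do not rest on Psmb9 and Psmb10 alone. For Psme1 per 100 reads of Psme3, the subunit of the nuclear cap, the values were 86.1 ± 4.95 in the parental cells, 40.6 ± 2.73 in the MITF KO and 144 ± 6.82 in the MITF/TFEB DKO, with no overlap.

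Against the parental cells, whose libraries are the control of all 7 comparisons, the question was which loss shifts the set. A gene was called at a change of at least 2-fold with an unadjusted p under 0.05, the threshold of the study. The study applied it to an edgeR test, and here it is applied to limma. In the MITF KO 6.28% of all genes were called in either direction with limma, and 10.6% with edgeR on the recovered reads. In the MITF KO 8 of 9 genes were called lower, all but Tap2, and none higher, while 2.99% of all genes were called lower. The median log2 change of the 9 genes was -1.98, or -2.14 with H2-K1 and Tap2 at their bounds, against 0.00059 for all genes. In the TFE3 KO only H2-K1 was called (1.34% of all genes were called lower), but 7 of 9 fell by the adjusted test, all but Tap2 and Psmb9, when 7.78% of all genes did. In the TFEB KO H2-K1 was again the only call (0.591%), and 6 of 9 fell by the adjusted test (2.59%). The changes that passed were between -0.39 and -0.98 in the TFE3 KO and between -0.50 and -0.91 in the TFEB KO, leaving H2-K1 aside. In the TFEB/TFE3 DKO H2-K1 was called (0.383%), and besides it only Psme1, with a log2 change of -0.28, fell by the adjusted test (4.09% of all genes). These single calls rest on H2-K1 and were lost without parental replicate 1. Without TFE3 KO replicate 1, or without parental replicate 3, 2 genes were called in the TFE3 KO, and without TFEB KO replicate 1 the count was 3 in the TFEB KO.

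The lines that lack MITF and another factor differed from each other. In the MITF/TFE3 DKO H2-K1 and Tap1 were called lower (2.37% of all genes), Tapbp, Psmb9 and Psme1 also fell by the adjusted test (21.7%), and the median change was -0.57. In the MITF/TFEB DKO H2-D1, Tap2 and Tapbp were called higher (8.78%), Psmb10 and Psme1 also rose by the adjusted test (28.8%), and the median change was 0.57. In the TKO B2m, H2-K1, Tap1, Tapbp and Psmb9 were called lower (6.41%), Psmb10 and Psme1 also fell by the adjusted test (27.9%), and the median change was -1.01. Without parental replicate 1 the count for the TKO was 3, since H2-K1 and Tapbp were then under 2-fold. The median change of all genes was between -0.02 and 0.02 in these 7 comparisons.

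**Figure D2:**
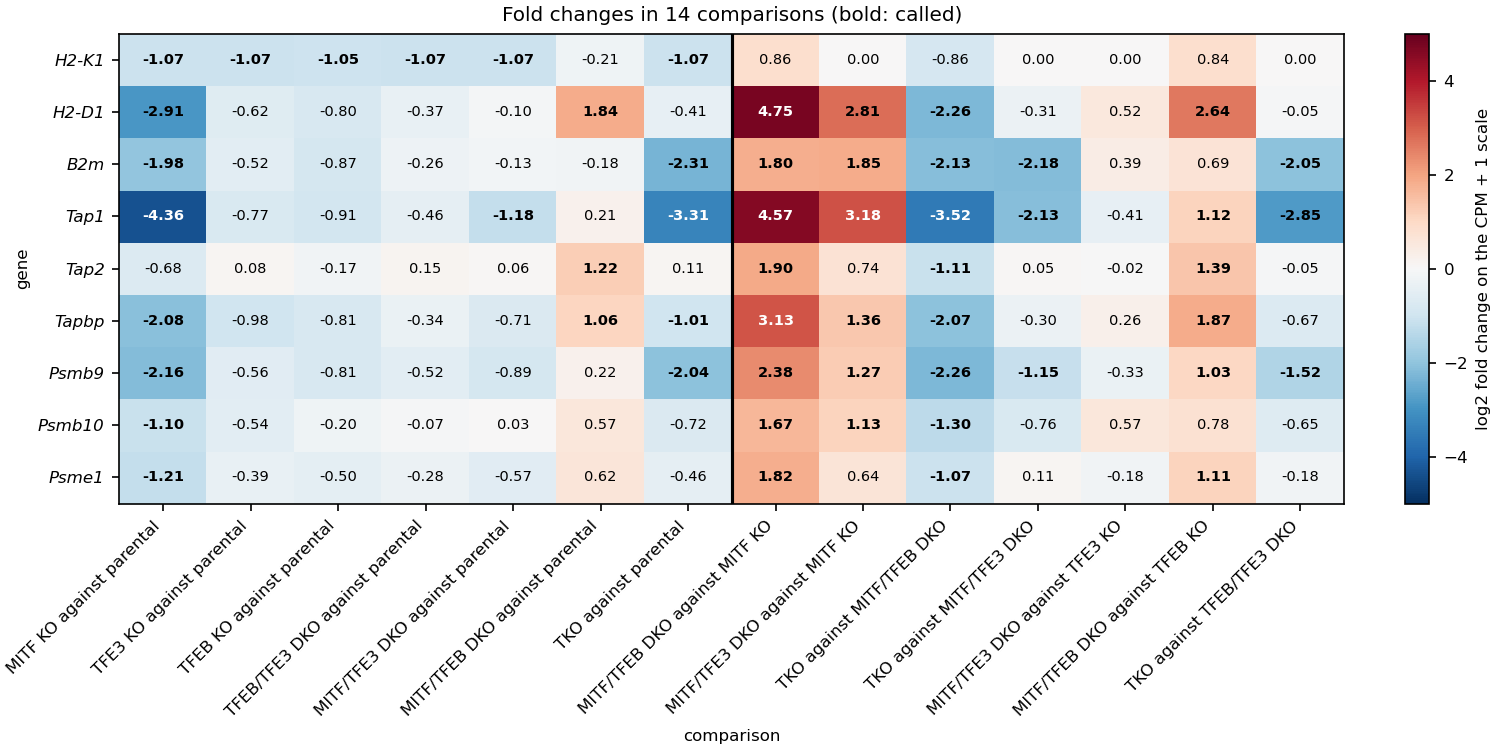
Log2 fold changes of the 9 genes (rows) in 14 comparisons (columns), on the scale of log2(CPM + 1), with blue for lower and red for higher and bold numbers for called genes. To the left of the line are the 7 comparisons with the parental cells, where the MITF KO column is the only one with 8 called genes.

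The next question was how the set differs on loss of TFEB or TFE3 once MITF is inactivated. Against the MITF KO, 8 of 9 genes were called higher in the MITF/TFEB DKO, when 6.91% of all genes were, and the ninth, H2-K1, also rose by the adjusted test (0.86, limma adjusted p = 1.02e-05), from 0 reads, when 25.1% of all genes rose. H2-D1 rose by 4.75, Tap1 by 4.57, Tapbp by 3.13 and Psmb9 by 2.38 on the log2 scale (limma adjusted p = 2.77e-16, 2.77e-16, 3.76e-12 and 2.2e-08). The median of the 9 genes was 1.90, or 2.53 with the genes of the MITF KO that were at the limit set to their bounds. In the MITF/TFE3 DKO 6 of 9 were called higher than in the MITF KO (3.39% of all genes), namely H2-D1 (2.81), B2m (1.85), Tap1 (3.18), Tapbp (1.36), Psmb9 (1.27) and Psmb10 (1.13). Psme1 rose by 0.64 (adjusted p = 2.35e-06 by limma), when 18.1% of all genes rose. H2-K1 had no read in either line. These 2 comparisons share the MITF KO libraries.

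The TKO, which lacks TFE3 besides MITF and TFEB, had lower levels of all 9 genes than the MITF/TFEB DKO. Of these, 8 were called lower (1.98% of all genes) and H2-K1 fell from 16 to 25 reads to 0 (6.99% of all genes fell by the adjusted test). Tap1 fell by 3.52, H2-D1 by 2.26, Psmb9 by 2.26, B2m by 2.13 and Tapbp by 2.07 on the log2 scale, each with a limma adjusted p of at most 2.27e-07. The fall of Tap2, by 1.11, had an adjusted p of 0.0301 by limma and was under 2-fold without MITF/TFEB DKO replicate 3 or without TKO replicate 1. The TKO was also set against the MITF/TFE3 DKO, from which it differs by TFEB. There H2-D1 (-0.31, limma adjusted p = 0.151) and Tapbp (-0.30, limma adjusted p = 0.204) were short of the threshold. B2m (-2.18), Tap1 (-2.13) and Psmb9 (-1.15) were called lower (5.75% of all genes), and Psmb10 (-0.76) also fell by the adjusted test (24.2%). The call of Psmb9 did not hold without MITF/TFE3 DKO replicate 1, when its change was -0.93.

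Lines with and without MITF were also compared where another factor was absent. In cells without TFE3 (MITF/TFE3 DKO against the TFE3 KO) no member was called with limma, when 8% of all genes were in either direction, and H2-D1 (0.52), B2m (0.39) and Psmb10 (0.57) rose by the adjusted test (22.8%), while at an unadjusted p under 0.05 Tap1 and Psme1 had changes of -0.41 and -0.18. In cells without TFEB (MITF/TFEB DKO against the TFEB KO) 6 members were called higher (9.32% of all genes), and B2m (0.69), Psmb10 (0.78) and H2-K1 (0.84) also rose by the adjusted test (29.2%). The calls were H2-D1 (2.64), Tapbp (1.87), Tap2 (1.39), Tap1 (1.12), Psme1 (1.11) and Psmb9 (1.03), the last of which was under 2-fold without TFEB KO replicate 3 (0.88) or MITF/TFEB DKO replicate 3 (0.75). In cells without both (TKO against the TFEB/TFE3 DKO) B2m (-2.05), Tap1 (-2.85) and Psmb9 (-1.52) were called lower (7.02% of all genes), Tapbp (-0.67) and Psmb10 (-0.65) also fell by the adjusted test (27.7%), and the change of H2-D1 was -0.05 (limma adjusted p = 0.83).

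**Figure D3:**
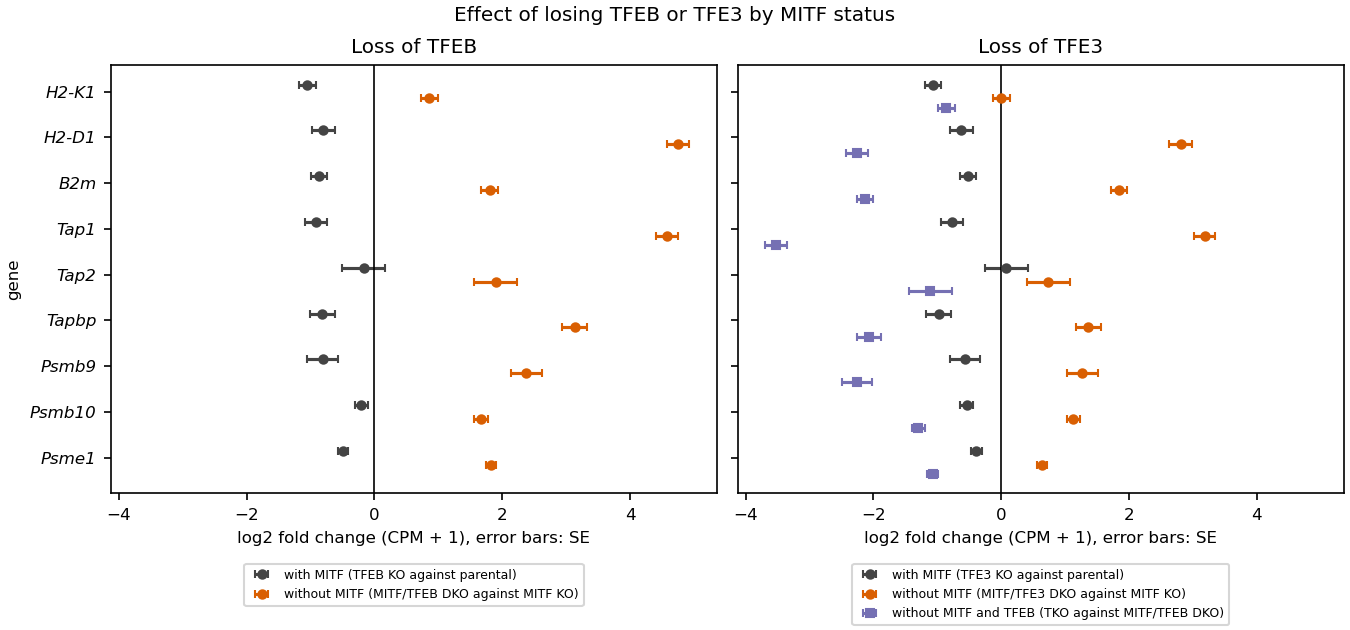
Log2 fold change (x axis, scale of log2(CPM + 1)) of each of the 9 genes (y axis) on loss of TFEB (left) or of TFE3 (right), in cells with MITF (grey) and without it (orange), with the TKO against the MITF/TFEB DKO in purple. Points are estimates from 3 libraries for each line and bars are standard errors; in the MITF KO, where TFE3 is present, the estimates for loss of TFEB were above 0 for every gene, and those for loss of TFE3 were above 0 with TFEB present, apart from H2-K1 at 0 and with Tap2 short of the adjusted threshold, and below 0 with TFEB absent.

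The difference between these effects was tested itself. The effect of losing TFEB was more positive without MITF than with it for 9 of 9 genes, by 1.87 (Psmb10) to 5.55 (H2-D1) on the log2 scale, at an adjusted p under 0.05 and a difference of at least 1, when 7.39% of all genes passed in that direction. For the loss of TFE3 the same held for 8 of 9 genes, by 1.03 (Psme1) to 3.95 (Tap1), when 4.01% of all genes passed, and Tap2 did not pass (0.66, limma adjusted p = 0.367). The difference for Psme1 was under 1 without parental replicate 2 (0.995), TFE3 KO replicate 1 (0.992) or MITF/TFE3 DKO replicate 2 (0.981). The difference for H2-K1 (1.07) is its parental level alone, since the gene had 0 reads in the MITF KO and the MITF/TFE3 DKO and could not fall further, and it was not past the threshold in edgeR or without parental replicate 1 (0.94). The effect of losing TFE3 was more negative without MITF and TFEB than without MITF alone for 8 of 9 genes, with differences from -1.71 (Psme1) to -6.70 (Tap1), when 4.63% of all genes passed. These 3 contrasts all contain the MITF KO libraries and are not independent of each other. In the MITF KO libraries together H2-K1 had 0 reads, Tap2 1, Tap1 6 and Psmb9 7. A further loss in that line could therefore hardly lower these genes.

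Other genes of the pathway were taken from lists by function. Against the parental cells, 0.783% (TFEB KO) to 14.7% (TKO) of all genes were called in a line in either direction. A low count among 7 to 9 genes therefore does not set a list apart. Of 8 genes of loading and folding, such as calreticulin and Pdia3, none was called in any line against the parental cells, and their median change was between -0.11 and 0.08. Of 7 peptide-trimming enzymes in the table only Erap1, the aminopeptidase that trims peptides in the endoplasmic reticulum, was called. Erap1 was 6.51, 6.32 and 7.46 CPM in the parental cells, 1.93, 1.49 and 2.23 CPM for the MITF KO and 16.3, 15.9 and 15.4 CPM for the MITF/TFEB DKO, 3 groups with no overlap. Of 9 proteasome partners only Psme2, the other PA28 subunit, was called, with 62.3, 62.2 and 73.8 CPM in the parental cells, 23.6, 17.4 and 21.2 CPM for the MITF KO and 147, 157 and 159 CPM for the MITF/TFEB DKO. Psme2 therefore had the order of Psme1 in these 3 lines. The constitutive Psmb5, Psmb6 and Psmb7 had changes of -0.41, -0.29 and -0.98 in the MITF KO and of 0.18, -0.74 and -0.57 in the MITF/TFEB DKO. Of 22 other class I or class I-like heavy chains 6 had a row, and in the MITF/TFEB DKO H2-T22, H2-T10, Mr1 and Fcgrt were called higher, by 1.30 to 1.39, when 8.78% of all genes were. Hfe, which takes part in iron uptake, went the other way, with 7.85, 8.64 and 7.73 CPM in the parental cells and 0.666 to 2.94 CPM in every library of the 4 lines without MITF. Mr1, which presents vitamin metabolites, was called higher in the TKO as well (1.18).

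Regulators of class I genes were a list of 29, of which 27 had a row. In the MITF KO 5 of the 27 were called lower and 1 higher (2.99% and 3.29% of all genes), with a list median of -0.03. The 5 were Irf9 (-4.56), Nlrc5 (-2.52), Stat2 (-2.24), Irf1 (-1.51) and Socs3 (-1.28), and Relb (1.15) rose. STAT2 and IRF9 belong to the complex that carries the type I interferon signal, and IRF1 acts downstream of interferon gamma. In the MITF/TFEB DKO 5 were called higher and none lower (8.78% and 4.94% of all genes), namely Nlrc5 (1.59), Stat2 (1.36), Stat3 (1.31), Rfx5 (1.29) and Relb (1.16). In the TKO 3 were called lower, namely Irf9 (-2.55), Stat2 (-1.71) and Nlrc5 (-1.11), and Stat3 (1.21) and Relb (1.74) were called higher (6.41% of all genes were called lower and 8.28% higher). Socs3, Relb, Stat3, Rfx5 and H2-T10 were named after their values were seen. Nlrc5 was 7.51, 7.87 and 6.56 CPM in the parental cells, 0.518, 0.562 and 0.272 CPM for the MITF KO, 8.64, 9.61 and 8.96 CPM in the MITF/TFE3 DKO, 21.9, 28.5 and 21.9 CPM for the MITF/TFEB DKO against 2.81, 2.85 and 2.88 CPM for the TKO. Its order over these 5 lines was that of Tap1 save that the MITF/TFE3 DKO was above the parental cells. Stat2 was 27.4, 26.3 and 29.1 CPM in the parental cells, 5.37, 4.90 and 4.90 CPM for the MITF KO, 76.7, 70.6 and 70.7 CPM for the MITF/TFEB DKO against 8.12, 7.23 and 7.83 CPM for the TKO. These 4 lines did not overlap. Irf1 was 69.9, 74.6 and 60.2 CPM in the parental cells and 24.3, 21.8 and 23.4 CPM for the MITF KO, but 52.5, 48.6 and 50.8 CPM for the TKO, where it was not called (-0.42).

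**Figure D4:**
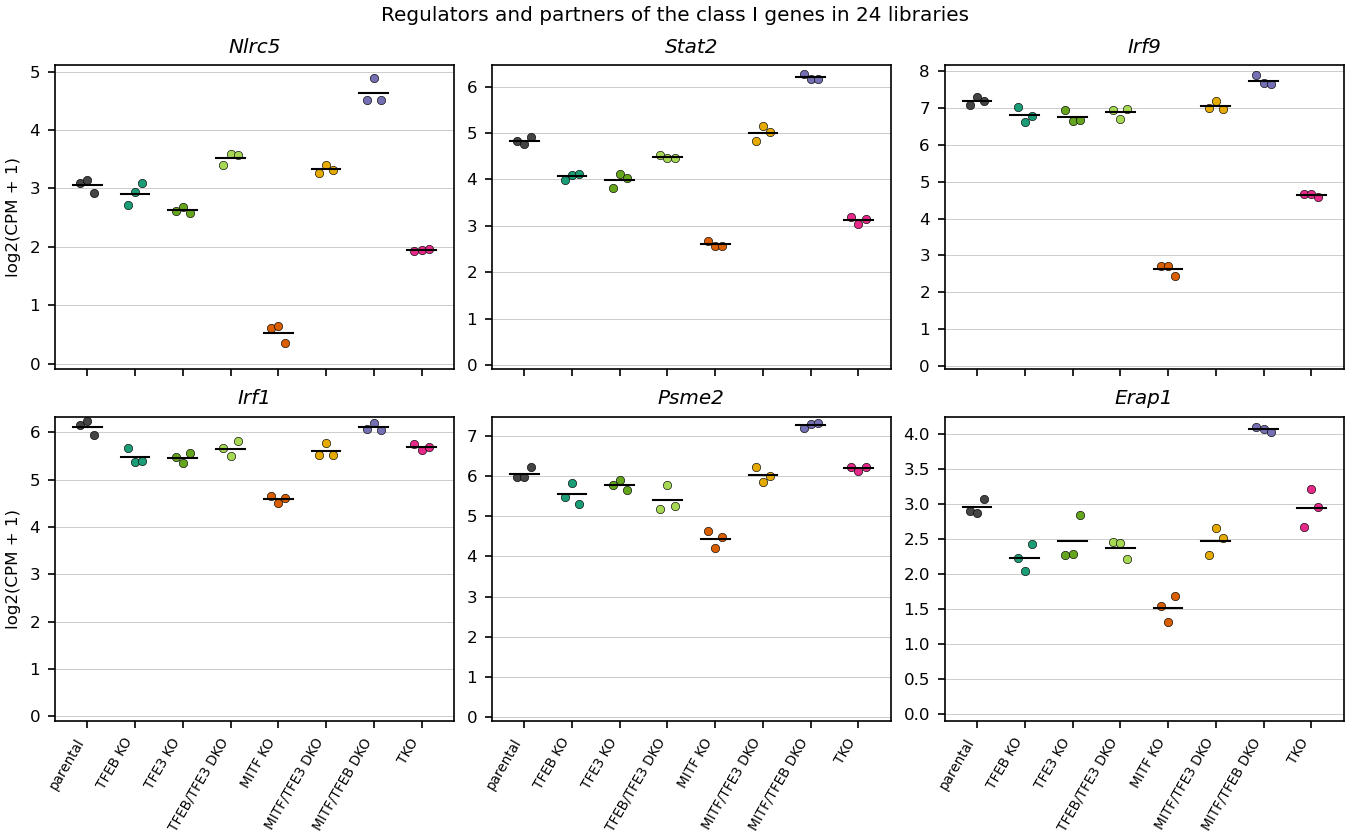
Levels of Nlrc5, Stat2, Irf9, Irf1, Psme2 and Erap1 in 24 libraries, with the 8 cell lines on the x axis and log2(CPM + 1) on the y axis. Points are libraries and bars are the means of 3; all 6 genes were lowest in the MITF KO, and 5 were highest in the MITF/TFEB DKO, Irf1 being level there with the parental cells.

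Over the means of the 8 lines, the 8 members other than H2-K1 had pairwise Pearson correlations of log2(CPM + 1) between 0.47 and 0.98 with a median of 0.86 over 28 pairs. These are descriptions over 8 lines that share a parental cell and, in part, a genotype. For the same 8 members, the correlation with Nlrc5 ran from 0.80 (B2m) to 0.97 (Psmb10). It ran from 0.83 (Tap2) to 0.98 (Psmb10) with Stat2 and from 0.67 (Tap2) to 0.97 (Tap1) with Irf9. With Irf1 it ran from 0.60 (B2m) to 0.92 (H2-D1). H2-K1 had 0.44 (Irf9) to 0.67 (Irf1) with these regulators. Among the 9539 genes whose mean level reached 5 CPM, the one most like H2-D1 was Gbp2 (r = 0.98), an interferon-induced GTPase, followed by Eng and Csf1. Those most like B2m were Irgm1 (r = 0.99), Parp11 and Oasl2, and those most like Tap1 were Rnf31, Ube2l6 and Parp9 (each r = 0.99). Psmb9 was nearest to Trim21, Rnf31 and Ifi204, and Psmb10 to Phf11d, Stat2 and Sp140. Tapbp was nearest to Snx10, Daxx and Slfn9, Psme1 to Snx10, Erap1 and Agrn, and Tap2 to Tox4, Eng and Erap1. For H2-K1, with its few reads, the nearest were Ppil4, Pcgf5 and Fndc3a (r = 0.85 to 0.88). Such a correlation takes no account of the size of a change. The line means of these nearest genes spanned from 0.30 (Ppil4) to 6.66 (Phf11d) on the log2 scale, and those of the members from 1.07 (H2-K1) to 4.75 (H2-D1). The 50 expressed genes around each member, 25 on each side, had a median log2 change in the MITF KO of 0.00 to 0.05 for the members on chromosome 17, -0.16 for B2m, 0.08 for Psmb10 and -0.06 for Psme1. Over all 7 comparisons with the parental cells these medians lay between -0.21 (Tapbp, MITF/TFE3 DKO) and 0.32 (Psmb10, MITF/TFE3 DKO).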

How the data were processed

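RNA was sequenced from 24 libraries, 3 for each of 8 lines, with a 3′ kit. As deposited, the signal values are counts that the authors scaled by TMM to CPM with edgeR, after FastQC 0.11.9, Trim Galore 0.6.5 with cutadapt 2.10 and STAR 2.7.8a on mm39; the counting tool, annotation and strand setting are not given in the sources used here. Steps between values gave whole reads for 99.9% of values (tolerance 0.01), and these recovered reads gave the depth and the read numbers of low genes. Log2(CPM + 1) was fitted with limma-trend (limma 3.58.1, R 4.3.3) with 1 term for each line over all 24 libraries, and p-values were adjusted by Benjamini-Hochberg over 12010 genes. "Called" means at least 2-fold with an unadjusted p under 0.05, and "rose" or "fell" an adjusted p under 0.05. A count of 0 was given an upper limit of 3 reads for each library, and intervals are exact (95%). Alternatives were edgeR 4.0.16 and DESeq2 1.42.0 on the recovered reads, pseudocounts of 0.25 and 5, a mean CPM of at least 5, median-of-ratios scaling, only the libraries compared, an adjusted p in the call, a replicate block and each replicate left out. On simulated data with 200 changed genes of 12010, limma recovered 99.5%. The changed genes had a mean CPM of at least 5, changes well above 2-fold and 1 fixed spread. The simulation therefore does not cover H2-K1, Tap2 and Psmb9 or changes near 2-fold. No replicate pair agreed within sampling noise (lowest chi-square per degree of freedom 4.63). Named were all members, the targeted genes, up to 4 called genes with the largest change in each list, direct partners and the 3 genes most correlated with each member among those with a mean CPM of at least 5. Members and lists were chosen with earlier results of these data known. One gene of the regulator list is not reported here.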

Additional observations from a re-analysis of the deposited data

Results flagged for a closer look

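The effect of losing TFEB or TFE3 on the class I genes differed between cells with and without MITF in the test of the difference itself. Each genotype is a single clone, so these tests compare lines. An effect of the factor and a property of the clone cannot be told apart. For the loss of TFEB, without MITF against with MITF, the difference of log2 fold changes was 5.55 for H2-D1, 5.48 for Tap1, 3.95 for Tapbp, 3.19 for Psmb9, 2.67 for B2m, 2.32 for Psme1, 2.06 for Tap2, 1.91 for H2-K1 and 1.87 for Psmb10, and the highest limma adjusted p among them was 0.00162, for Tap2. For the loss of TFE3 it was 3.95 for Tap1, 3.43 for H2-D1, 2.37 for B2m, 2.34 for Tapbp, 1.83 for Psmb9, 1.67 for Psmb10, 1.07 for H2-K1 and 1.03 for Psme1, with a limma adjusted p of at most 0.000372. The value for H2-K1 is set by its parental reads, since it had 0 reads in both lines without MITF that enter the test, and it was not past the threshold in edgeR. The value for Psme1 was under 1 without parental replicate 2 (0.995), TFE3 KO replicate 1 (0.992) or MITF/TFE3 DKO replicate 2 (0.981). The effect of losing TFE3 also differed between cells without MITF and TFEB and cells without MITF alone, by -6.70 for Tap1, -5.06 for H2-D1, -3.98 for B2m, -3.53 for Psmb9, -3.43 for Tapbp, -2.43 for Psmb10, -1.85 for Tap2 and -1.71 for Psme1, with a limma adjusted p of at most 0.00537. All of these values contain the 3 MITF KO libraries, in which H2-K1, Tap2, Tap1 and Psmb9 each had at most 7 reads in all and could hardly fall further.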

How the results depend on the processing

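No called value reversed its direction under the alternatives run. With a pseudocount of 5, which shrinks genes with few reads, the count of class I genes called was 5 in the MITF KO, 2 in the TKO and 0 in the TFE3 KO, TFEB KO, TFEB/TFE3 DKO and MITF/TFE3 DKO against the parental cells, 3 for the MITF/TFEB DKO against the TFEB KO, and 5 for the test of the loss of TFE3 with and without MITF. With genes of a mean CPM of at least 5, which leaves 6 of the 9, it was 3 in the TKO, 1 for the MITF/TFE3 DKO and 0 in the TFE3 KO, TFEB KO and TFEB/TFE3 DKO. In the TFEB KO it was 2 with edgeR, with DESeq2 and with a pseudocount of 0.25. With each replicate left out in turn, the count ran from 7 to 8 in the MITF KO, 0 to 2 in the TFE3 KO, 0 to 3 in the TFEB KO, 0 to 1 in the TFEB/TFE3 DKO, 2 to 3 for the MITF/TFE3 DKO, 2 to 3 in the MITF/TFEB DKO and 3 to 5 in the TKO. Against the MITF KO it ran from 8 to 8 in the MITF/TFEB DKO and 6 to 7 in the MITF/TFE3 DKO, and for the TKO against the MITF/TFEB DKO from 7 to 8. For the test of the loss of TFE3 with and without MITF it ran from 7 to 8. The values of 0, and the 3 in the TKO, came without parental replicate 1. Among the values of single genes, 50 calls were lost, 28 of them with a pseudocount of 5, and 31 were gained, of 2352 recomputed. Replicate numbers did not pair the libraries in a regular way. Deviations from the line means had a mean correlation of 0.0222 for the same number and -0.0126 for other numbers. Same-number pairs ran from -0.66 to 0.77, and 42 of 84 were above 0.1. Of 24 libraries, 10 correlated best with their own number. With the replicate block the count stayed at 8 in the MITF KO, and 0 of 170 results changed their call. A block on the number cannot take up deviations that libraries share across numbers. Limits are the single clone behind each genotype, the few reads of H2-K1, Tap2 and Psmb9, and 3 libraries for each line.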

Other observations

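Of 20 ligands and surface proteins read by T or NK cells, 9 had a row. Lgals9, which encodes galectin-9, was 162, 168 and 159.9 CPM in the parental cells, 3.44, 3.69 and 3.16 CPM for the MITF KO and 5.50, 5.56 and 5.03 CPM for the TKO, and it fell by 5.21 and 4.69 on the log2 scale (limma adjusted p = 8.76e-23 and 9.27e-22). In the MITF/TFEB DKO it was 67.0, 68.8 and 66.8 CPM, below the parental cells, where H2-D1 and Tapbp were above them. Cd274, which encodes PD-L1, was 14.02, 16.96 and 13.8 CPM in the parental cells and at most 12.0 CPM in any library of the other 7 lines, and it was called lower in the MITF KO (-1.29), the TFE3 KO (-1.29) and the TKO (-2.10). Nectin2, a ligand of DNAM-1, was lower in all 4 lines without MITF, at 37.9 to 64.5 CPM against 172 to 187 CPM in the parental cells. Serpinb9b, a serpin of the granzyme-inhibitor family, rose in the MITF KO (1.48) and the TKO (1.17). These genes were from a list chosen with earlier results of the data known, and no cause was tested.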
